A study of Mus musculus with 9 samples.

Results

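The transcripts of 10 receptors for collagens and laminins were followed in D2.0R cells, out of 23309 gene symbols with a value. They were chosen by name and not by their measured values, although earlier results of these data were known. They comprise the integrin α subunits that bind collagen (Itga1, Itga2, Itga10 and Itga11), Itga3 and Itga6 of those that bind laminin, the integrin β subunits Itgb1 and Itgb4, and the discoidin domain receptors Ddr1 and Ddr2. D2.0R is a mouse mammary tumour cell line that the study used as a model of dormancy: the cells were kept in 3D culture on basement membrane extract (BME), or on BME mixed with type I collagen (COL1). RNA was sequenced from 3 groups with 3 biological replicates each (a, b and c), namely day 1 on BME, day 5 on BME and day 5 on BME plus COL1. All groups came from the same line, with no genetic change, in low-glucose DMEM with serum and Cultrex, so that the groups differed in COL1 and in time. The study describes D2.0R cells as dormant on BME and as proliferating on BME plus COL1. Matrix and growth state therefore cannot be told apart at day 5. No COL1 group was analysed at day 1, so the COL1 libraries differed from the day 1 libraries in both matrix and time, whose parts cannot be told apart.

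Integrins are heterodimers of an α and a β subunit that link the extracellular matrix to the cytoskeleton. The β1 subunit pairs with all the α subunits followed here, whereas β4 pairs with α6 alone, and α6β4 anchors hemidesmosomes to laminin. DDR1 and DDR2 are receptor tyrosine kinases that are activated by native collagen, DDR1 mainly in epithelial cells and DDR2 mainly in mesenchymal cells. BME, a basement membrane preparation, is rich in laminin and type IV collagen, so that the added COL1 brought a fibrillar ligand of the collagen-binding integrins and of both DDRs.

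Values were FPKM (fragments scaled to transcript length in kilobases and to the mapped fragments of the library), summed over the transcripts of a gene. 6 of the receptors averaged at least 1 FPKM over the 9 libraries and entered the test across 10497 genes, and the other 4, all collagen-binding α subunits, stayed below it. The transcripts of each library were covered by 7.21 to 9.37 gigabases. BME day 5 replicate b stood apart, with a median gene 0.27 lower on the log2 scale than the middle of the libraries, and it held the lowest BME day 5 value of each tested receptor. Called changes of the receptors that involve this group are therefore also given without it. BME day 5 replicate a differed in another way, since transcripts under 300 nt held 7.3% of its FPKM, against 0.497 to 2.18% in the other libraries.

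Of the cell type markers, 4 of 10 epithelial genes (Krt8, Krt18, Epcam and Cdh1) and 6 of 7 mesenchymal genes, Vim among them, reached 1 FPKM in at least 1 library, whereas Krt19, Cldn3, Esrp1 and Grhl2 stayed near 0. None of 8 endothelial markers did so. The summed epithelial markers were at 1440 to 1600 FPKM at day 1, 775 to 1150 at day 5 on BME and 2340 to 2440 with COL1. These sums were nearly all Krt8 and Krt18, whereas Cdh1 was not highest with COL1, at 34.3 ± 3.33, 16.4 ± 0.768 and 31.1 ± 0.953 FPKM in the same order (SD, n = 3). The summed mesenchymal markers were at 736 to 824, 646 to 900 and 1260 to 1320 FPKM, carried by Vim. Zeb1, Zeb2 and Twist2 instead had their lowest means with COL1, whereas Snai2 and Twist1 had their highest there. Zeb1 was at 2.67 ± 0.426, 2.51 ± 0.255 and 0.952 ± 0.0663 FPKM, and Twist1 at 8.66 ± 0.502, 14.6 ± 2.66 and 14.9 ± 0.754 (SD, n = 3). The summed fibroblast markers, carried by Pdgfra, Pdgfrb, Postn and Col1a1, were at 23.5 to 31.6, 50.7 to 62.4 and 4.68 to 4.89 FPKM in the same order, with Thy1, Dcn and Lum near 0. Of the haematopoietic markers Cd68 and Ppbp reached 1 FPKM, and they moved in opposite directions with COL1, with Cd68 at 3.01 ± 0.407, 2.95 ± 0.324 and 1.02 ± 0.103 FPKM and Ppbp at 1.04 ± 0.282, 0.105 ± 0.0328 and 14.7 ± 0.393 FPKM (SD, n = 3), so that the sum of that list, at 3.52 to 4.42, 2.74 to 3.30 and 15.5 to 16.1 FPKM, followed Ppbp alone. In these bulk samples fewer cells of a type and less RNA per cell cannot be told apart, and the part of these shifts in the receptor changes was not tested.

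At day 5 the matrices were compared first. The laminin-binding subunits Itga3 and Itga6 were lower on BME than with COL1, whereas Itgb4, Ddr1 and Ddr2 were higher and Itgb1 did not pass the test. Thus 3 of the 6 tested receptors were higher on BME, beside 30.3% of all genes tested, and 2 were lower, beside 45.3%. With so many genes called in either direction, these counts do not set the receptors apart, and the split of all genes turned with scaling, from 3179 higher and 4756 lower to 4858 and 3327 after conversion to TPM. Their median change was 0.13 on the log2 scale, against -0.18 for all genes.

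**Figure D1:**
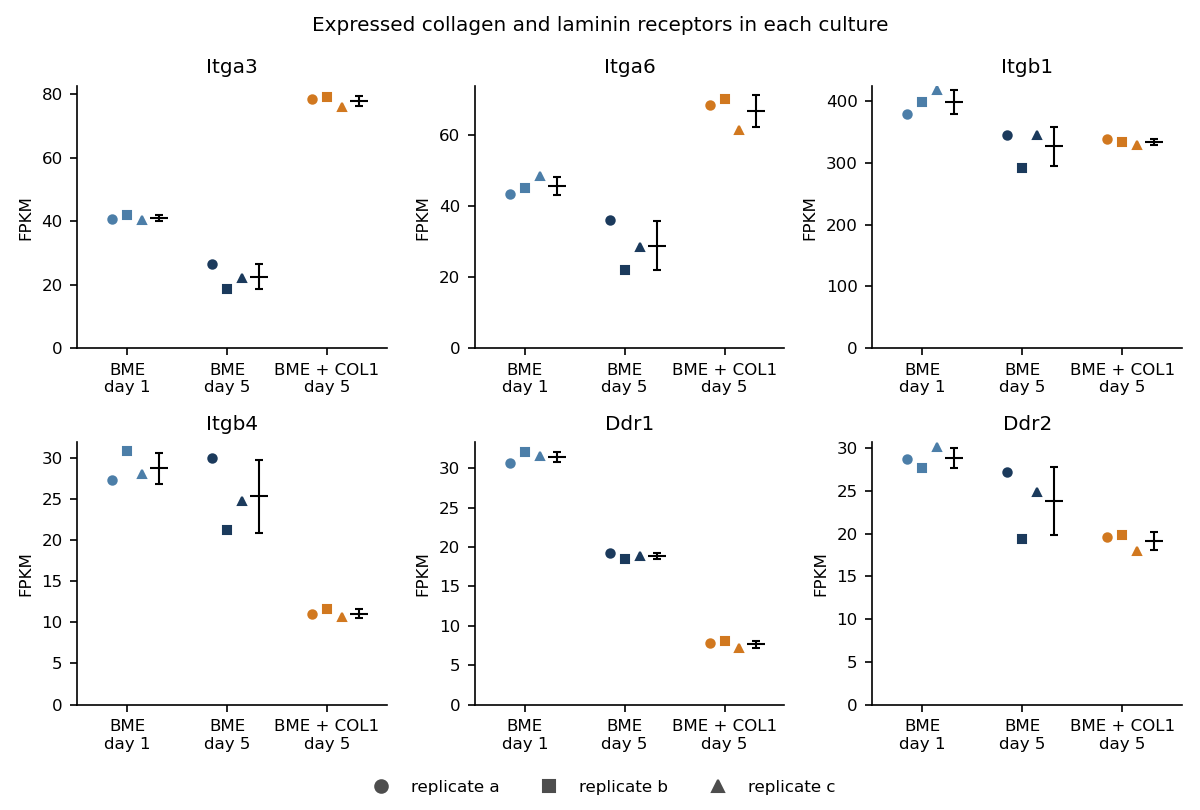
FPKM (linear axes from 0) of the 6 tested receptors by group, with a point for each library (shape marks the replicate) and, to the right of the points, the mean with its SD (n = 3). Itga3 and Itga6 are highest on BME plus COL1, Itgb4 and Ddr1 are lowest there, and Itgb1 lies between 291 and 345 FPKM on both matrices at day 5.

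Promoters of receptors that differed between the matrices are shown first, since the same letters recur in Itga3, which was higher with COL1, and in the main start of Ddr1, which was lower. Each window holds the 250 bases before the annotated transcript start in build NCBIM37 (mm9), the build of the deposited transcripts, read 5′ to 3′ on the strand of the gene. Capitals mark matches to the motifs searched on both strands, which were the GC box GGGCGG, the AP-1 site TGANTCA, the E-box CACGTG, the TEAD site GGAATG and the TATA box TATAAA.
Itga3 (chr11:94938029-94938278, minus strand): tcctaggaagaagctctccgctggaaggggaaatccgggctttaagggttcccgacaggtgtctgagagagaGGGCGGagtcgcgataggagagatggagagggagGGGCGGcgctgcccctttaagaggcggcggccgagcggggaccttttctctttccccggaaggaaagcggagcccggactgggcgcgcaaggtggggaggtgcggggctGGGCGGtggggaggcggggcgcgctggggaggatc
Itgb4 (chr11:115835789-115836038, plus strand): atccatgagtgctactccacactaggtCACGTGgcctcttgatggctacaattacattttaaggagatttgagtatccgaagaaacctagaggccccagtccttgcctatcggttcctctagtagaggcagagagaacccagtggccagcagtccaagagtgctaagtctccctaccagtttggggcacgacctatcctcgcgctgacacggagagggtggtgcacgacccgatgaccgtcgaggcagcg
Ddr1, NM_001198833 start (chr17:35837536-35837785, minus strand): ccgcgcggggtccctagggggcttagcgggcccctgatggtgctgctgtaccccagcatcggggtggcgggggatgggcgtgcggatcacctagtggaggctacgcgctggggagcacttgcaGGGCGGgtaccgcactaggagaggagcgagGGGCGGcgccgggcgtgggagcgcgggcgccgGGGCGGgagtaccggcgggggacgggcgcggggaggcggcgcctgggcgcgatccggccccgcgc
Ddr1, NM_001198831 start (chr17:35838990-35839239, minus strand): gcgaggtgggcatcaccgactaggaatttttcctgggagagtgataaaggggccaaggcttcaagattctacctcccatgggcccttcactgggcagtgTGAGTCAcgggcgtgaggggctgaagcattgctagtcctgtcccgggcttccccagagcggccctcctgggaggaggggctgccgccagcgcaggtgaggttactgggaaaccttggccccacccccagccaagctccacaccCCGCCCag
The Itga3 window and the window of the main Ddr1 start each held 3 GC boxes. At least 1 GC box was present in 41.9% of 25956 windows of the same length before annotated starts, and the share with 3 was not computed. The Itgb4 window held an E-box 223 to 218 bases upstream of the start and no GC box, and an E-box was present in 6.57% of windows. The NM_001198831 window held an AP-1 site 151 to 145 bases upstream and a GC box on the other strand, and AP-1 sites were present in 6.17% of windows. The GC content was 67.6% for Itga3, 54.8% for Itgb4, 78.0% for NM_001198833 and 63.6% for NM_001198831, against a median of 55.2%. These matches are letters in a window and not measured binding sites.

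The β1 subunit, the shared partner, was the most abundant receptor in every library. Itgb1 (chr8:131209554-131257479, plus strand) stood at 379, 399 and 418 FPKM on BME at day 1, at 345, 291 and 345 on BME at day 5, and at 339, 334 and 329 on BME plus COL1. The day 5 groups overlapped, and every day 1 library lay above every day 5 library. Between the matrices at day 5 Itgb1 differed by -0.04 on the log2 scale (SE 0.09, 95% interval -0.24 to 0.17, adjusted p = 0.742). The direction of this small difference depended on scaling, at 0.31 after conversion to TPM (adjusted p = 0.000723), and it was 0.05 (adjusted p = 0.418) without BME day 5 replicate b. From day 1 to day 5 on BME Itgb1 fell by 0.29 on the log2 scale (SE 0.09, adjusted p = 0.0404), a call that was lost without any 1 of the BME day 1 or the BME plus COL1 libraries (adjusted p up to 0.103), whereas without BME day 5 replicate b it was -0.21 with an adjusted p of 0.0133.

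The β4 subunit, which has a long cytoplasmic tail that binds plectin, was lower with COL1. Itgb4 (chr11:115836039-115869725, plus strand) stood at 27.3, 30.9 and 28.1 FPKM on BME at day 1, at 30.0, 21.2 and 24.8 on BME at day 5, and at 11.0, 11.6 and 10.6 on BME plus COL1. The BME groups overlapped, and all COL1 libraries lay below all BME libraries. Itgb4 was 2.26-fold higher on BME than with COL1 at day 5 (log2 1.18, SE 0.12, adjusted p = 1.72e-05), and 1.30 on the log2 scale without BME day 5 replicate b (adjusted p = 1.79e-06). Over time on BME it differed by -0.20 (SE 0.12, 95% interval -0.46 to 0.07, adjusted p = 0.216), and was called lower only when BME day 5 replicate a was left out (-0.32, adjusted p = 0.031).

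Both Itgb4 transcripts in the files had the same start. NM_133663 made up 93.0 to 96.8% of Itgb4 in the 9 libraries. NM_001005608, which carries an extra exon of 159 nt (exon 34 of 40) and a shorter exon 27, made up 3.18 to 7.01%. The minor form stood at 1.99 ± 0.137, 1.29 ± 0.446 and 0.532 ± 0.0441 FPKM (SD, n = 3) in the BME day 1, BME day 5 and COL1 libraries, and the major form at 26.8 ± 1.75, 24.0 ± 4.26 and 10.5 ± 0.472. The lower Itgb4 level with COL1 was thus seen in both forms, of which the major form made up nearly all of the difference in FPKM. The 3′ end of Itgb4 overlaps Galk1 on the opposite strand, and the strand setting used in the quantification is not given in the sources used here.

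The laminin-binding α subunits Itga3 and Itga6 were higher with COL1, the opposite direction to Itgb4. Itga3, whose product pairs with β1 as a receptor for laminin-332 and laminin-511 (chr11:94905796-94938028, minus strand), stood at 40.7, 42.1 and 40.3 FPKM on BME at day 1, at 26.6, 18.8 and 22.3 on BME at day 5, and at 78.4, 79.3 and 76.0 on BME plus COL1. The 3 groups did not overlap. Itga3 was 3.47-fold lower on BME than with COL1 at day 5 (log2 -1.80, SE 0.11, adjusted p = 1.18e-06), and the difference was -1.67 without BME day 5 replicate b (adjusted p = 1.75e-07). On BME alone it fell by 0.87 on the log2 scale from day 1 to day 5 (SE 0.11, adjusted p = 0.0013), and by 0.75 without that library (adjusted p = 0.000293).

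Itga6, whose product can pair with either β1 or β4 (chr2:71625140-71694815, plus strand), stood at 43.3, 45.0 and 48.3 FPKM on BME at day 1, at 35.9, 22.0 and 28.5 on BME at day 5, and at 68.3, 70.1 and 61.4 on BME plus COL1. Its groups did not overlap either. Itga6 was 2.35-fold lower on BME than with COL1 at day 5 (log2 -1.23, SE 0.15, adjusted p = 6.92e-05), and the difference was -1.05 without BME day 5 replicate b (adjusted p = 1.49e-05). On BME it fell by 0.69 on the log2 scale over time (SE 0.15, adjusted p = 0.0124), and by 0.51 without that library (adjusted p = 0.00613). This fall was not called in a fit to the 6 BME libraries alone (adjusted p = 0.0554) or without the filter on low genes (adjusted p = 0.0526).

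The collagen-binding α subunits were barely detected on any matrix. Itga2, the α subunit of the α2β1 collagen receptor of epithelial cells and platelets (chr13:115626120-115722249, minus strand), stood at 0.628, 0.972 and 0.366 FPKM on BME at day 1, at 0.416, 0.266 and 0.397 on BME at day 5, and at 0.0368, 0.0472 and 0.0514 on BME plus COL1. All COL1 libraries lay below all BME libraries, while the BME groups overlapped. In a fit to all 23309 genes without a filter Itga2 was 1.65 higher on BME than with COL1 at day 5 on the scale of log2(FPKM + 0.1) (SE 0.30, adjusted p = 0.0045), and over time on BME it differed by -0.65 (adjusted p = 0.234). Without BME day 5 replicate b the difference between the matrices was 1.81 (adjusted p = 0.00705). With COL1 Itga2 lay below the 0.1 FPKM added before the log, on which the sizes of these differences depend. The confidence bounds that Cufflinks, the program that estimated the FPKM, gave for Itga2 reached from 13.9 to 75.6% of the value on either side, and the mean coverage was 0.371 to 11.3 reads per base.

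The other collagen-binding subunits were lower still. Itga1 (chr13:115748289-115892172, minus strand), the α subunit of α1β1, was at 0.0805 to 0.1 FPKM at day 1, 0.0921 to 0.123 at day 5 on BME and 0.0394 to 0.0618 with COL1, and without the filter it was 0.42 higher on BME at day 5 (SE 0.08, adjusted p = 0.00522), or 0.36 without BME day 5 replicate b (adjusted p = 0.0131). These levels are near or below the 0.1 FPKM added before the log, on which the sizes of the Itga1 differences depend. Itga10 (chr3:96449507-96468442, plus strand), best known from cartilage, ranged from 0.208 to 0.419 FPKM over the 9 libraries, and Itga11 (chr9:62525662-62631786, plus strand), best known from fibroblasts, from 0.00741 to 0.0309. Neither Itga10 nor Itga11 was called in any comparison, with differences of -0.05 (SE 0.20) and 0.03 (SE 0.08) between the matrices at day 5. Itga11 lay well below the 0.1 FPKM added before the log in every library. This holds its differences and their SE small, so that a change at these levels would barely show. Of the summed FPKM of the 6 α subunits, the collagen-binding ones made up 0.989 to 1.48% at day 1, 1.20 to 1.78% at day 5 on BME and 0.256 to 0.296% with COL1. The gene Pelo lies within Itga1 on the same strand, and reads of the overlap cannot be assigned with certainty.

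**Figure D2:**
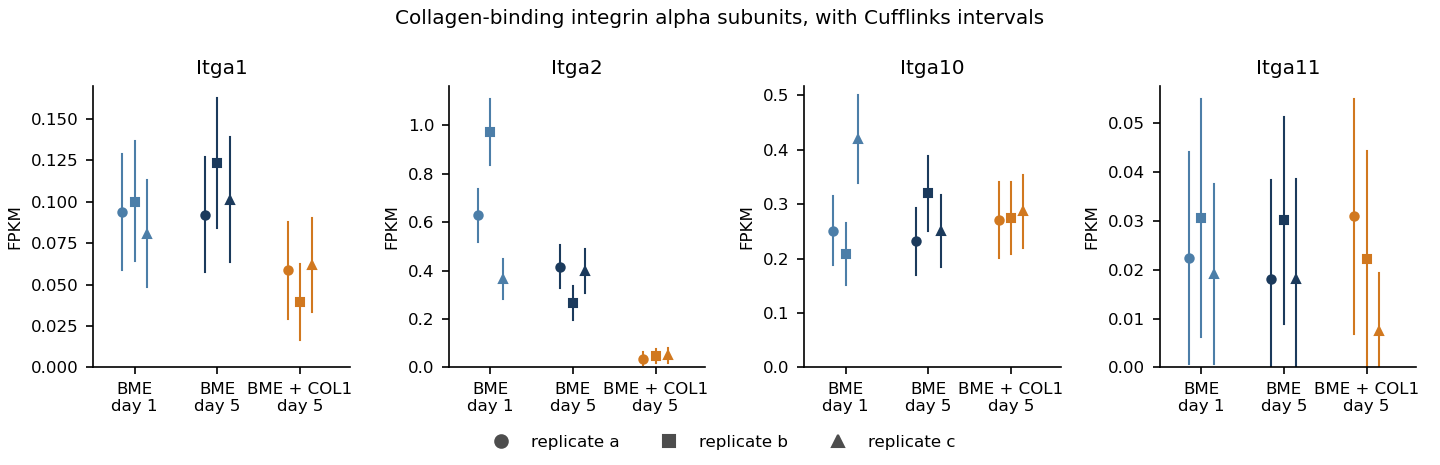
FPKM (linear axes from 0) of the 4 collagen-binding α subunits, with a point for each library (shape marks the replicate) and the Cufflinks confidence bounds as vertical lines. Itga2 is at most 0.0514 FPKM in the libraries with COL1 and at least 0.266 in those on BME, whereas the Itga10 and Itga11 groups overlap.

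The discoidin domain receptors were both lower with COL1. Ddr1 (chr17:35818512-35841084, minus strand) stood at 30.7, 32.0 and 31.5 FPKM on BME at day 1, at 19.3, 18.5 and 18.8 on BME at day 5, and at 7.80, 8.02 and 7.18 on BME plus COL1. The groups were far apart, with an SD of 0.682 FPKM or less within each. Ddr1 was 2.45-fold higher on BME than with COL1 at day 5 (log2 1.29, SE 0.07, adjusted p = 4.08e-07), and 1.30 on the log2 scale without BME day 5 replicate b (adjusted p = 2.17e-07). Over time on BME it fell by 0.73 (SE 0.07, adjusted p = 0.000292), by 0.72 without that library (adjusted p = 0.000161), and by 0.38 when only the most abundant transcript was taken (adjusted p = 0.0415).

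Ddr2 (chr1:171902438-172019075, minus strand) stood at 28.8, 27.7 and 30.1 FPKM on BME at day 1, at 27.2, 19.4 and 24.9 on BME at day 5, and at 19.6, 19.9 and 18.0 on BME plus COL1. BME day 5 replicate b lay among the COL1 libraries. Ddr2 was 1.23-fold higher on BME than with COL1 at day 5 (log2 0.30, SE 0.12, adjusted p = 0.0407). The call was kept without BME day 5 replicate b (log2 0.44, adjusted p = 0.000246) and was lost without any 1 of the other libraries (adjusted p from 0.0528 to 0.139). Over time on BME Ddr2 differed by -0.29 (SE 0.12, 95% interval -0.55 to -0.03, adjusted p = 0.0838), and it was called lower when BME day 5 replicate a was left out (-0.39, adjusted p = 0.0284). Its 3′ end overlaps 3110045C21Rik on the opposite strand.

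Ddr1 transcripts with different starts were detected, and they did not move alike. NM_001198833 starts at chr17:35837535 and NM_001198831 at chr17:35838989, whose promoters are printed above, and NM_172962 at chr17:35841084. The last lacks an exon of 111 nt (exon 12 of 18) that the others carry, the difference known between the DDR1a form, without it, and the DDR1b form, with it. The exon is printed because it separates the forms, and its sequence encodes part of the juxtamembrane region that precedes the kinase domain.
Ddr1 exon 12 (chr17:35823426-35823536, minus strand): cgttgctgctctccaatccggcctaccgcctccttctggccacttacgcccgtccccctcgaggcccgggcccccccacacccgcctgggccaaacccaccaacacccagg
A further form with the exon and the start of NM_172962, NM_007584, was near 0 in every library. The start and the exon therefore went together in NM_172962 and cannot be told apart by these values.

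NM_001198833 was the main Ddr1 form in every library, at 20.1, 19.9 and 19.4 FPKM on BME at day 1, 16.6, 13.9 and 15.2 on BME at day 5, and 6.01, 4.86 and 4.25 on BME plus COL1. NM_001198831 stood at 7.61, 9.06 and 9.86 FPKM on BME at day 1, 1.29, 2.25 and 2.43 on BME at day 5, and 0.341, 1.78 and 1.70 on BME plus COL1. The day 1 libraries were well above the others for the second form, and its day 5 groups overlapped. Of the fall of 12.5 FPKM in mean Ddr1 over time on BME, NM_001198831 made up 6.85 and NM_001198833 made up 4.58. Of the difference of 11.2 FPKM between the matrices at day 5, NM_001198833 made up 10.2 and NM_001198831 made up 0.720. These are descriptions of estimates that divide shared reads among forms, and no test was made on single transcripts.

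The form without the exon, NM_172962, stood at 2.96, 3.05 and 2.17 FPKM on BME at day 1, 1.39, 2.34 and 1.22 on BME at day 5, and 1.45, 1.38 and 1.22 on BME plus COL1. Its day 5 groups overlapped, unlike those of Ddr1 as a whole. As a share of Ddr1 it was 9.65, 9.53 and 6.90% on BME at day 1, 7.22, 12.6 and 6.46% on BME at day 5, and 18.6, 17.2 and 17.0% on BME plus COL1. All libraries with COL1 thus lay above all BME libraries in the share of the form without the exon. The share of NM_001198831 with COL1 was 4.36% in replicate a, against 22.2% and 23.7% in replicates b and c, so that the division between the forms with the exon varied widely among these libraries.

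**Figure D3:**
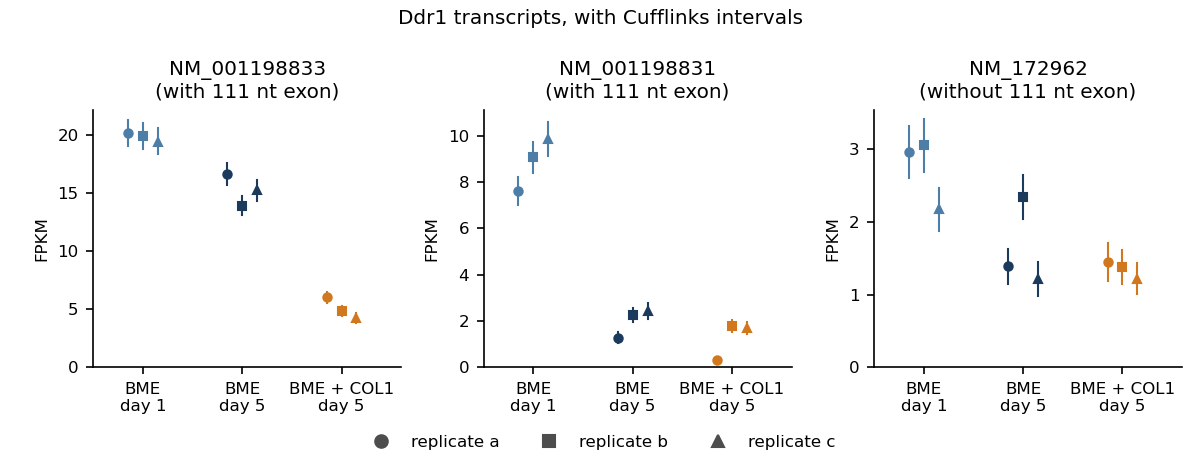
FPKM (linear axes from 0, a separate scale for each panel) of the 3 detected Ddr1 transcripts, with a point for each library (shape marks the replicate) and the Cufflinks confidence bounds as vertical lines. NM_001198833 is lowest with COL1 at 4.25 to 6.01 FPKM, NM_001198831 is highest on BME at day 1 at 7.61 to 9.86 FPKM, and the day 5 groups of NM_172962 overlap.

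Ratios within a library do not depend on how libraries were scaled to each other, and are given as a description without a test. The ratio of Itga6 to Itgb4, the subunits of α6β4, was 1.59, 1.46 and 1.72 at day 1 and 1.20, 1.04 and 1.15 at day 5 on BME, whereas it was 6.23, 6.06 and 5.80 with COL1. The COL1 libraries lay far above the others. The ratio of Itga3 to Itga6 was 0.833 to 0.939, 0.742 to 0.854 and 1.13 to 1.24 in the BME day 1, BME day 5 and COL1 libraries, so that Itga3 exceeded Itga6 with COL1 alone. The ratio of Itgb1 to the sum of Itga3 and Itga6 was 4.51 to 4.72, 5.52 to 7.15 and 2.24 to 2.40 in the same order. Itgb1 thus remained in excess of these α subunits in every library, by the smallest margin with COL1.

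The balance of the collagen-activated kinases shifted as well. The ratio of Ddr1 to Ddr2 was 1.05 to 1.15 at day 1, 0.710 to 0.955 at day 5 on BME and 0.399 to 0.402 with COL1, and the groups did not overlap. The sum of both was 60.3 ± 1.14, 42.7 ± 4.34 and 26.8 ± 1.48 FPKM (SD, n = 3). Ddr1 was the higher of the pair in every BME day 1 library and Ddr2 in every day 5 library.

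**Figure D4:**
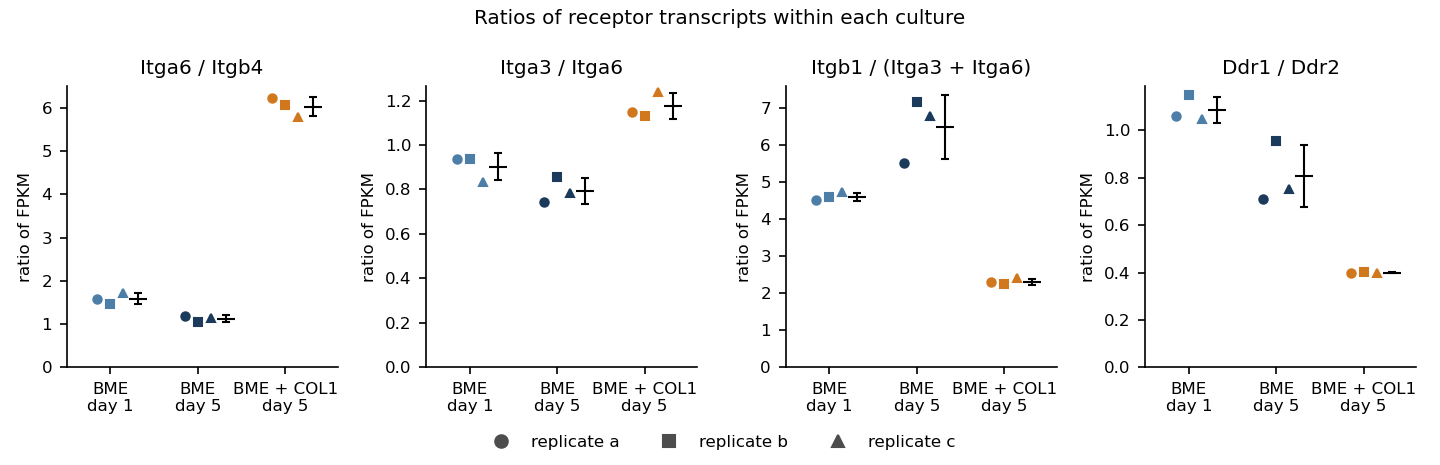
Ratios of FPKM within each library (linear axes from 0), with a point for each library (shape marks the replicate) and, to the right, the mean with its SD (n = 3). Itga6 to Itgb4 is 5.80 to 6.23 with COL1 and at most 1.72 on BME, and Ddr1 to Ddr2 is near 0.400 in all libraries with COL1.

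The order of levels differed between the groups. On BME at day 1 it was Itgb1, Itga6, Itga3, Ddr1, Ddr2 and Itgb4 among the tested receptors, with neighbours apart except Ddr2 and Itgb4, whose ranges overlapped. On BME at day 5 each neighbour from Itga6 through Itgb4, Ddr2 and Itga3 to Ddr1 overlapped with the next, so that only Itgb1 stood apart. With COL1 the order was Itgb1, Itga3, Itga6, Ddr2, Itgb4 and Ddr1, and no neighbours overlapped. FPKM is scaled to transcript length, and on that basis these levels were set beside each other. Other differences between genes, such as the overlaps with neighbouring genes given above, were not corrected for.

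Time on BME was compared next. Between day 1 and day 5, 4 of the 6 tested receptors fell (Itga3, Itga6, Itgb1 and Ddr1) and none rose, beside 22.2% of all genes lower and 9.09% higher. The median change was -0.49 on the log2 scale, against -0.15 for all genes. The fall reached 1.83-fold in Itga3, 1.66-fold in Ddr1, 1.61-fold in Itga6 and 1.22-fold in Itgb1. The count of 4 was 2 in the fit to the 6 BME libraries and in the fit without a filter, where Itga6 and Itgb1 were not called. The first of these fits called 618 of 10497 genes lower and the second 1320 of 23309, against 2327 of 10497 in the main fit. The Itgb1 call was kept in 10 of 21 alternatives and was also lost with median-ratio scaling (-0.15, adjusted p = 0.0569) and with transcripts under 300 nt left out (adjusted p = 0.118).

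Cells on BME plus COL1 at day 5 were also set beside those on BME at day 1. Itga3 and Itga6 were higher and Itgb1, Itgb4, Ddr1 and Ddr2 were lower, that is 2 receptors beside 34.2% of all genes and 4 beside 31.8%. Itga3 was 0.92 higher on the log2 scale (SE 0.11, adjusted p = 0.000102) and Itga6 was 0.55 higher (SE 0.15, adjusted p = 0.0114). Ddr1 fell by 2.02 (SE 0.07, adjusted p = 1.04e-07), the widest difference of any tested receptor, Itgb4 by 1.37 (SE 0.12, adjusted p = 1.21e-05) and Ddr2 by 0.59 (SE 0.12, adjusted p = 0.00173). Itgb1 fell by 0.25 (SE 0.09, adjusted p = 0.0331), a call lost without BME day 1 replicate b or c or without any 1 of the COL1 libraries (adjusted p up to 0.0928). The comparisons share libraries, and their values are therefore not independent of each other.

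**Figure D5:**
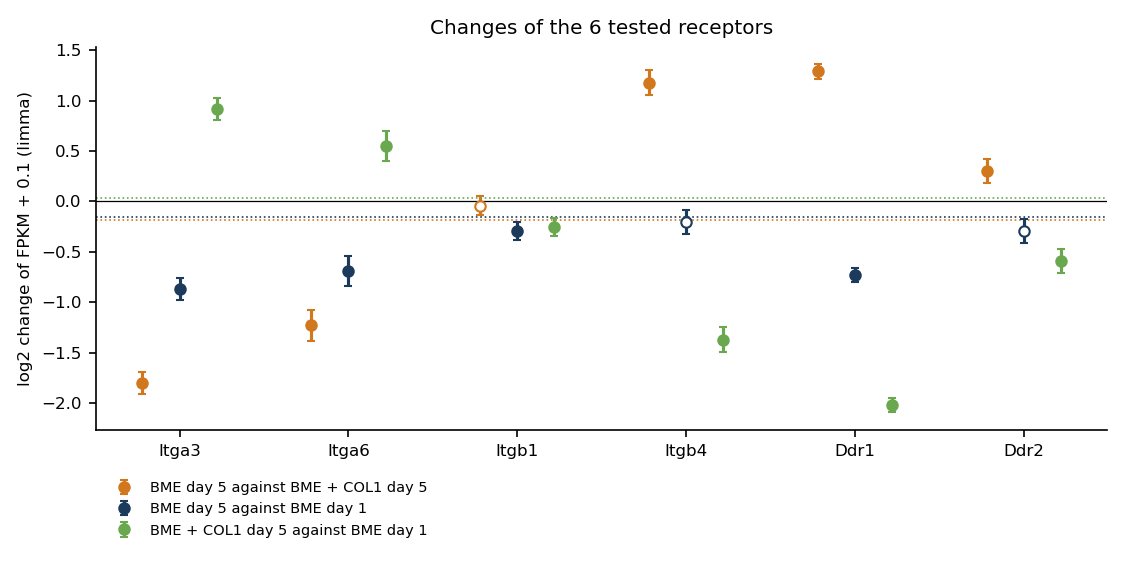
Log2 change of FPKM + 0.1 (limma) with its SE for the 6 tested receptors in each comparison, where positive values are higher in the group named first, filled circles passed an adjusted p of 0.05 and dotted lines mark the median of all 10497 genes. Itga3 and Itga6 lie at -1.80 and -1.23 and Itgb4 and Ddr1 at 1.18 and 1.29 for the matrix comparison at day 5.

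Genes around these receptors were described from lists of known partners, whose counts stand beside the 30.3% of all tested genes that were higher on BME and the 45.3% that were lower at day 5, the 9.09% that rose and the 22.2% that fell over time, and the 34.2% that were higher and the 31.8% that were lower in the COL1 than in the day 1 libraries. Of 7 tested other integrin subunits, 5 were higher on BME than with COL1 at day 5 and none lower, led by Itgad, a leukocyte β2 partner (log2 5.54, SE 0.59, adjusted p = 2.48e-05), and Itgb3, the β subunit of the vitronectin receptor (2.51, SE 0.20, adjusted p = 3.68e-06). From day 1 to day 5 on BME 2 rose, Itgad (4.08) and Itgb5 (1.61), and Itga5, the fibronectin receptor α subunit, fell by 0.32. Itgad stood at 0.239 ± 0.236, 5.54 ± 3.02 and 0.00561 ± 0.00972 FPKM (SD, n = 3) in the BME day 1, BME day 5 and COL1 libraries. It passed the filter through its BME day 5 values alone, so its calls as higher there are not independent of the filter. The sizes of its differences depend on the 0.1 FPKM added before the log. Itgb2, which encodes the β2 partner and was named after its values were seen, was at most 0.388 FPKM. Between BME plus COL1 and BME at day 1 none was higher and 4 were lower, led by Itgb3 (-2.80) and Itgb8 (-1.58). Itga7, a further laminin-binding α subunit on this list, stood at 23.1 ± 6.09, 15.8 ± 5.03 and 19.6 ± 0.509 FPKM (SD, n = 3) in the BME day 1, BME day 5 and COL1 libraries and was not called in any comparison (-0.37 between the matrices, SE 0.25, adjusted p = 0.2). It was named after its values were seen. The changes in Itga3 and Itga6 were opposite in direction to each called subunit of this list between the matrices.

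Of 19 tested adaptors and kinases of integrin adhesions, 3 were higher on BME, beside 30.3% of all genes, and 11 lower, beside 45.3%, at day 5. Lims2, a partner of the integrin-linked kinase, was higher by 2.02 on the log2 scale (SE 0.17, adjusted p = 5.82e-06) and the tensin Tns3 by 0.42, whereas the adhesion protein zyxin (Zyx) and talin 2 (Tln2), which binds β subunit tails, were at -1.30 and -1.28. From day 1 to day 5 none rose and 9 fell, again led by Zyx (-0.80) and Tln2 (-0.79). Between BME plus COL1 and BME at day 1, 6 were higher, led by Parva (0.60) and Ilk (0.58), and 5 were lower, led by Lims2 (-2.00) and paxillin, Pxn (-0.58).

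Of 8 tested hemidesmosome parts and tetraspanin partners, 4 were higher on BME at day 5, beside 30.3% of all genes, and none lower, beside 45.3%, led by the tetraspanins Cd82 (log2 1.45, SE 0.09, adjusted p = 1.18e-06) and Cd81 (0.74). The others called were Cd151 (0.34), the tetraspanin partner of α3β1 and α6β4, and Erbb2ip (0.63), which encodes erbin, a binder of the β4 tail. Plec, which encodes plectin, did not pass the test (0.01, SE 0.18, 95% interval -0.39 to 0.41, adjusted p = 0.959). Cd151 and Plec were named after their values were seen. Over time only Dst, which encodes dystonin, was called (-0.66, SE 0.15, adjusted p = 0.0117). Between BME plus COL1 and BME at day 1, 5 were lower, led by Cd82 (-1.22) and Erbb2ip (-0.74), and none higher.

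Of 6 tested other receptors for collagens or laminins, 4 were higher on BME at day 5, beside 30.3% of all genes, and 1 lower, beside 45.3%. Gpr56, an adhesion receptor for type III collagen, was higher by 3.96 on the log2 scale (SE 0.53, adjusted p = 9.88e-05) and Bcam, a receptor for the laminin α5 chain, by 1.37, whereas Rpsa, a ribosomal protein also described as a laminin receptor, was at -1.19. Gpr56 stood at 1.21 ± 0.593, 2.35 ± 1.46 and 0.033 ± 0.00557 FPKM (SD, n = 3) in the BME day 1, BME day 5 and COL1 libraries. It passed the filter through the BME groups alone, so its calls as higher there are not independent of the filter. With COL1 it lay below the 0.1 FPKM added before the log, on which the sizes of its differences depend. Bcam stood at 1.08 ± 0.137, 1.83 ± 0.464 and 0.639 ± 0.11 FPKM (SD, n = 3) in the same order. It passed the filter only through its BME day 5 values, so its calls as higher there are not independent of the filter. Over time Bcam (0.69) and dystroglycan, Dag1 (0.23), rose and Rpsa (-0.77) fell. Between BME plus COL1 and BME at day 1 none was higher and 4 were lower, led by Gpr56 (-3.21) and syndecan 1, Sdc1 (-1.24).

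Without BME day 5 replicate b the genes named as leading these lists kept their direction, and Bcam over time (0.52, adjusted p = 0.0694) was the only one to lose its call. Rpsa over time was then at -0.50. The calls of Itga5, Zyx, Bcam, Dag1 and Rpsa over time were each lost without BME day 1 replicate a and also without replicate b, with adjusted p from 0.0504 to 0.0962. The calls of Itga5, Bcam and Dag1 were in addition lost without COL1 replicate b (adjusted p = 0.05, 0.0508 and 0.0516), those of Itga5 and Dag1 without COL1 replicate a (0.0547 and 0.0636), those of Bcam and Dag1 without BME day 1 replicate c (0.0837 and 0.0719), and that of Bcam without BME day 5 replicate c (0.0736) or COL1 replicate c (0.0514). Several list counts also changed without BME day 5 replicate b. At day 5, 6 other integrin subunits were higher on BME in place of 5, and 5 hemidesmosome and tetraspanin genes in place of 4. Over time, 10 adaptors and kinases fell in place of 9, and 2 hemidesmosome and tetraspanin genes in place of 1. In the COL1 against the day 1 libraries, 9 adaptors and kinases were higher in place of 6, and 1 other collagen or laminin receptor in place of none. There, 6 other integrin subunits were lower in place of 4, and 7 hemidesmosome and tetraspanin genes in place of 5.

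The genes whose log2 levels followed the β subunits most closely over the 9 libraries are given as a description. For Itgb1 they included Adcy7 (Pearson r 0.989) and Plek2 (0.986), and for Itgb4 they were Itpr3 (0.996), Zmiz1 (0.993) and Slc44a1 (0.992), each among 7630 candidate genes that averaged 5 FPKM or more. The libraries fall into 3 groups, so that these values describe differences between groups as much as within them.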

How the data were processed

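RNA of 9 D2.0R libraries was sequenced with a directional library kit. According to the submitters' processing notes, CASAVA 1.8.4, Trimmomatic 0.30, TopHat2 2.0.8 and Partek were used with build mm9 (NCBIM37), and the deposited values are FPKM per RefSeq transcript, with bounds and coverage, in the text format that Cufflinks writes (its version is not given in the sources used here). This text field is a unit of its own, from which the FPKM given by the authors were read. Raw counts were not used here, so no counting interval was computed beyond the bounds that Cufflinks gave. FPKM of 30563 transcripts were summed to 23309 gene symbols. Genes averaging 1 FPKM or more (10497) were tested on log2(FPKM + 0.1) with limma 3.58.1 in R 4.3.3 (intensity trend, group means of all 9 libraries, 6 residual degrees of freedom, two-sided), with Benjamini-Hochberg adjustment over all genes in each of 3 comparisons and a threshold of 0.05. Fold changes are on the log2(FPKM + 0.1) scale. Intervals are 95% intervals of the limma estimate. The study's own test worked on alignments, which were not used here.

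The libraries are described as biological replicates. The labels do not say whether the replicate letters pair the libraries, and the main fit has no block.

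The receptors and the lists of partners were chosen with earlier results of these data known. From each partner list the 2 largest rises and the 2 largest falls among called genes are named in each comparison. From the marker lists, those reaching 1 FPKM are named, and for Itgb1 and Itgb4 the 3 genes with the highest Pearson r among those averaging 5 FPKM or more. Some genes and a promoter window that these rules name are not reported here. Markers near 0 and Vim were named after their values were seen.

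Promoter windows were read from the NCBIM37 genome and compared by sequence with a RefSeq promoter table of a later build (GRCm38.p6), which held identical sequence for 9 of the 12 windows but not for the printed Itgb4 window. Alternatives were a pseudocount of 1 or 0.01 FPKM, a filter at 5 FPKM or none, conversion to TPM, median-ratio scaling, quantile normalization, transcripts under 300 nt left out (each library then rescaled to its own total before removal), the most abundant transcript per gene, no intensity trend, a replicate block, the 6 libraries of a comparison alone, and each library left out in turn. For the low collagen-binding subunits, a fit with no filter and without BME day 5 replicate b was added after seeing the data.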

Additional observations from a re-analysis of the deposited data

How the results depend on the processing

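Over 378 values (6 receptors, 3 comparisons and 21 alternatives), 342 kept their direction and their side of the threshold, 30 lost a call, 2 gained one in the same direction and 4 changed direction. Of the 4 that changed direction, 3 also gained a call. Itga3, Itga6, Itgb4 and Ddr1 were called in all 21 alternatives between the matrices at day 5, with log2 values from -1.92 to -1.39, -1.40 to -0.83, 1.05 to 1.53 and 1.20 to 1.64. The changes of direction were those of Itgb1 in that comparison, at 0.31 with TPM, 0.15 with median-ratio scaling (adjusted p = 0.0276), 0.28 with quantile normalization (adjusted p = 0.0015), and from -0.08 to 0.05 with each library left out in turn. Scaling moved the median of all genes there from -0.18 to 0.16 with TPM, 0.00 with median-ratio scaling and -0.04 with quantile normalization, and the genes called higher and lower from 3179 and 4756 to 4858 and 3327, 4151 and 4156, and 3790 and 4239. In the same order the main, TPM, median-ratio and quantile fits called 954 and 2327, 1534 and 2236, 1967 and 1839, and 1903 and 2050 genes over time on BME, and the main and TPM fits called 3588 and 3343 and 2638 and 4870 between the COL1 and day 1 libraries. The members called lower over time on BME, 4 in all, were 2 with no filter on low values, beside 1320 of 23309 genes, and 2 with only the 6 libraries compared, beside 618 of 10497. With the replicate block, this count was 3, since Itgb1 was no longer called (adjusted p = 0.0587), and no other call of the 6 receptors changed. Same-letter libraries deviated together with correlations from -0.23 to 0.10, so the letters are not taken as pairs. The Ddr2 difference between the matrices was also not called without a filter (adjusted p = 0.101) or with the 6 libraries compared (adjusted p = 0.0806). With no filter and without BME day 5 replicate b, chosen after seeing the data, Itga1 and Itga2 kept their calls, and Itga11, not called in either fit, was at -0.02 between the matrices in place of 0.03. With 3 libraries a group and no raw counts, differences of the low collagen-binding subunits are the least secure.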

Other observations

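The genes for the matrix ligands of these receptors were also measured in the cells themselves, and none of the following values belongs to the receptors. Of 8 tested laminin chains, 1 was higher and 4 were lower on BME than with COL1 at day 5. Lamb2, the β2 chain, was higher by 1.24 on the log2 scale (SE 0.08, adjusted p = 1.71e-06), whereas Lama4, the α4 chain, was at -2.69 (SE 0.27, adjusted p = 1.67e-05). From day 1 to day 5 on BME Lamb2 rose by 0.72 and 3 chains fell, among them Lama3, the α3 chain (-1.66). Between BME plus COL1 and BME at day 1, Lama4 (1.97) and Lamc1 (0.65) were higher, and Lamb3 (-2.37) and Lamb2 (-0.52) were lower.

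Of 7 tested collagen chains, 5 were higher on BME than with COL1 at day 5 and none lower, led by the type VI chains Col6a3 (3.06, SE 0.47, adjusted p = 0.000254) and Col6a1 (2.19, SE 0.29, adjusted p = 0.000102). From day 1 to day 5 on BME Col6a1 rose (1.12) and Col5a3 fell (-1.14). Between BME plus COL1 and BME at day 1 none was higher and 4 were lower, led by Col6a3 (-4.03) and Col5a3 (-1.49). Without BME day 5 replicate b, 3 collagen chains rose over time in place of 1, and Col5a3 over time was at -0.71. At day 5, 7 collagen chains were then higher on BME in place of 5, and 2 laminin chains in place of 1. In the COL1 against the day 1 libraries, 5 collagen chains were lower in place of 4, and 3 laminin chains higher in place of 2. The calls of Col6a1 and Col5a3 over time were lost without BME day 1 replicate a (adjusted p = 0.0746 and 0.0591) and without replicate b (adjusted p = 0.0701 and 0.0616), that of Col6a1 also without BME day 5 replicate c (0.0593) and that of Col5a3 without BME day 1 replicate c (0.0607). These lists were chosen with earlier results of these data known, and the shares of all genes called in these comparisons are given with the receptors.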
